A study of Mus musculus with 7 samples.

Results

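Genes of sterol, fatty acid and triglyceride synthesis and 4 of their regulators were followed across the livers of 7 mice. The members were taken by gene symbol from the classes of enzymes and regulators that the SREBP transcription factors are known to drive, and all features of a gene on the array were averaged. Of 43 listed members, 42 were measured, out of 16462 genes on the array. They comprised 17 of 18 sterol genes, 14 of 14 fatty acid genes, 7 of 7 triglyceride genes and 4 of 4 regulators. Acat2, a cytosolic thiolase of the sterol pathway, had no feature in the annotation used here.

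All mice were on a chow diet: 3 were C3ar1-/-, without the receptor that binds complement C3a, and 4 were their wild-type littermates. On each array 1 liver was compared with pooled liver RNA of 6 wild-type mice, so every value is a log ratio of mouse to pool and 0 means the level of the pool. Strain, sex, age, feeding state at collection, the deleted part of C3ar1 and whether the wild-type mice of the arrays are in the pool are not given in the sources used here. Livers are numbered as in the labels, wild-type 1 to 4 and knockout 2 to 4. Mouse over pool is the likely direction, going by the titles, which name the pool before the mouse. It is not stated, and if it were opposite, all signs given here would turn. The base of the logarithm is not stated either, and base 10 was assumed for each fold. A single value was deposited for each liver, so only the spread between mice gives an error. In whole liver, fewer cells of a type and less RNA per cell cannot be told apart.

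Across all probes the SD of an array lay between 0.0466 and 0.0975 in log ratio, the widest in knockout liver 2, and the medians lay between -0.0008 and 0.0139. C3ar1 itself differed by 0.0329 ± 0.0233 (SE) between knockout and wild type (limma, adjusted p = 0.872), from 1 feature that may lie outside the deleted part and so checks no label. Hepatocyte markers were all on the array, 10 of 10, but a ratio of liver to liver cannot show which tissue was taken.

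SREBP proteins are made as precursors in the membrane of the endoplasmic reticulum. When sterols are scarce, Scap carries them to the Golgi, where proteases release the part that enters the nucleus, and Insig proteins hold Scap back when sterols are plentiful. SREBP-2, from Srebf2, is known mainly for the genes of cholesterol synthesis, and SREBP-1c, from Srebf1, for those of fatty acid and triglyceride synthesis, which insulin raises in fed liver. ChREBP, from Mlxipl, drives an overlapping set of fatty acid genes in response to carbohydrate.

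The synthesis genes varied more from mouse to mouse than most genes, and 1 wild-type liver held most of the high values. The range from the lowest to the highest liver had a median of 0.353 over the sterol genes, 0.425 over the fatty acid genes and 0.203 over the triglyceride genes, against 0.105 over all genes. Wide ranges were not particular to the members. Over the cell type and feeding lists read below, the median ran from 0.1 for adipocyte to 0.367 for Kupffer cell markers. It was 0.219 for hepatocyte markers and 0.309 for genes that respond to feeding or fasting. Wild-type liver 2 was the highest of the 7 livers for 15 of 17 sterol genes, 10 of 14 fatty acid genes, 2 of 7 triglyceride genes and 2 of 4 regulators, 29 of 42 members in all, where it was the highest for 15.1% of all genes. In that liver 40 of 42 members lay above the pool, and it was also the highest for 4 of 5 measured cholangiocyte markers. Wild-type liver 1 was the lowest for 18 of 42 members and for 17.1% of all genes, and knockout liver 4 was the lowest for 8 of 42 members and for 15.1% of all genes. Because liver 2 of the wild types stands apart for these genes, the differences between genotypes that it moves most are given with and without it.

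**Figure D1:**
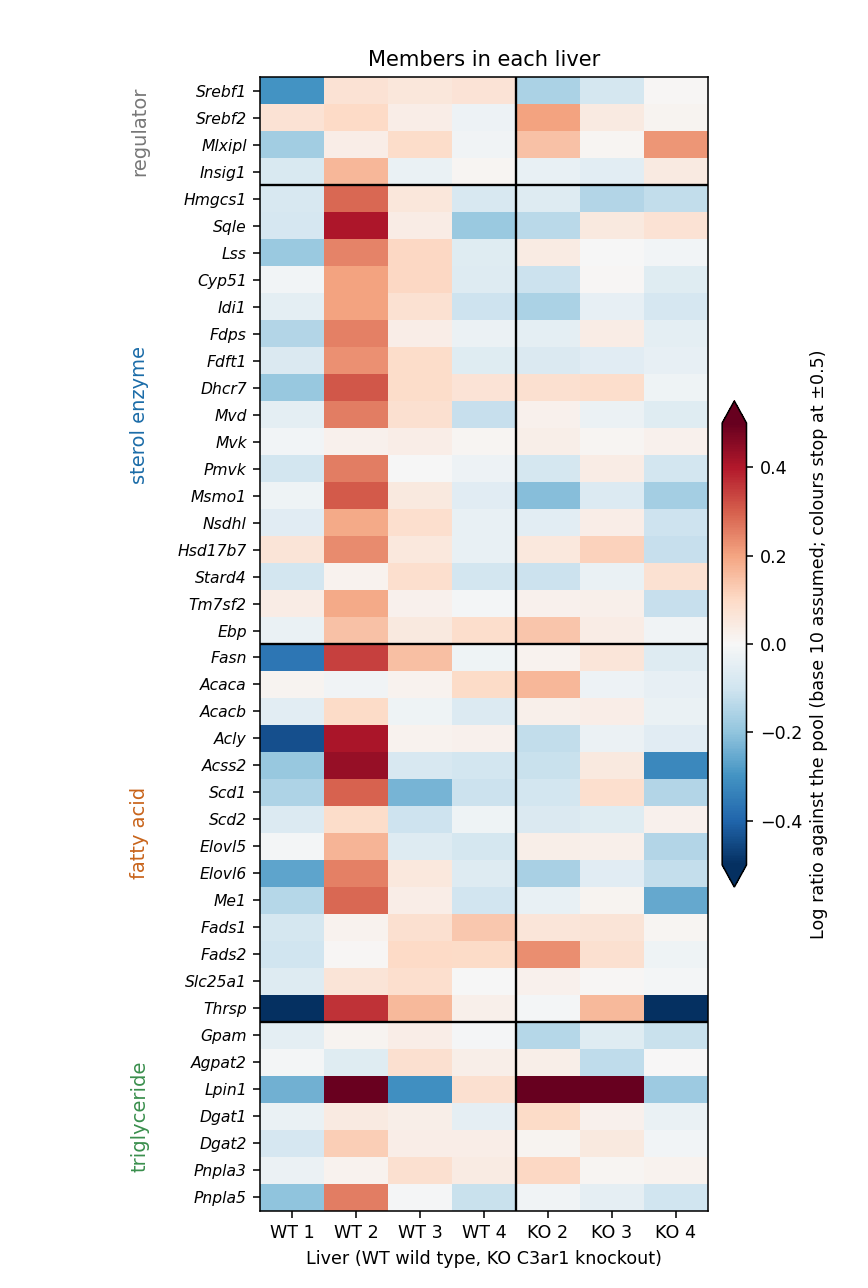
Colour shows the log ratio against the pool (base 10 assumed, colours stop at 0.5 in either direction) of each of the 42 members (vertical axis, by arm) in each of the 7 livers (horizontal axis, WT wild type, KO C3ar1 knockout). The column of wild-type liver 2 is red for nearly all sterol genes and for most fatty acid genes, and Lpin1 is high in wild-type liver 2 and in knockout livers 2 and 3.

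No member passed the test between genotypes: 0 of 42 had an adjusted p under 0.05 by limma with Benjamini-Hochberg adjustment over all genes, where 0.00607% of all genes (1 gene, A2ml1) did. At an unadjusted limma p under 0.05, 2 members were lower in the knockouts, Msmo1 and Gpam, against 2.76% of all genes, and 0 were higher, against 2.02%. The values of the 2 genotypes did not overlap for the same 2 members, both lower in the knockouts, against 2.61% of all genes, and for 0 members higher in the knockouts, against 2.77%. By sign alone 32 of 42 members had a difference below 0, against 43.3% of all genes, but without wild-type liver 2 the number was 17 of 42.

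Among the regulators wild-type liver 2 stood out less than among the sterol and fatty acid genes. Srebf1 stood at -0.298, 0.0729, 0.0553 and 0.0678 in wild-type livers 1 to 4 and at -0.160, -0.0887 and 0.0050 in knockout livers 2 to 4. Wild-type liver 1 was the lowest, the other 3 wild-type livers lay close together, and the genotypes overlapped, with a difference of -0.0558 ± 0.0946 (SE; limma, adjusted p = 0.909) and of -0.0230 without wild-type liver 2. Srebf2 read 0.0737, 0.0980, 0.0346 and -0.0273 in the wild types and 0.2002, 0.0447 and 0.0128 in the knockouts. It was highest in knockout liver 2, not in wild-type liver 2, and differed by 0.0412 ± 0.0497 (adjusted p = 0.877). Mlxipl, the gene of ChREBP, gave -0.173, 0.0322, 0.0922 and -0.0187 in the wild types and 0.145, 0.0090 and 0.220 in the knockouts. Knockout livers 2 and 4 were its highest and knockout liver 3 lay among the wild types, and the difference of 0.142 ± 0.0706 did not pass (adjusted p = 0.872). Insig1, which retains Scap and is itself an SREBP target, had -0.0767, 0.165, -0.0341 and 0.0109 in the wild types and -0.0377, -0.0518 and 0.0468 in the knockouts. Of the 4 regulators it showed wild-type liver 2 farthest above the rest, and its difference was -0.0304 ± 0.0568 (adjusted p = 0.916) and 0.0191 without that liver.

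The sterol arm leads from acetyl-CoA units through mevalonate, squalene and lanosterol to cholesterol, and each of its 3 stretches showed wild-type liver 2 on top. The first stretch, from Hmgcs1 to Fdps, makes farnesyl diphosphate, and its 6 genes averaged 0.212 in wild-type liver 2 against -0.0714 to 0.0466 in the other 6 livers. Hmgcs1, the synthase that joins acetoacetyl-CoA with acetyl-CoA, stood at -0.0787, 0.289, 0.0560 and -0.0810 in the wild types and at -0.0664, -0.146 and -0.125 in the knockouts. All 3 knockouts were below the pool, but knockout liver 2 lay above wild-type livers 1 and 4, and the difference of -0.158 ± 0.0866 (SE) corresponds to 1.44-fold (limma, adjusted p = 0.872). Without wild-type liver 2 it was -0.0777. Idi1, the isomerase of isopentenyl diphosphate, had its lowest value, -0.159, in knockout liver 2 and its highest, 0.201, in wild-type liver 2. Mvd and Pmvk, which encode the decarboxylase and the second kinase of mevalonate, were likewise highest in wild-type liver 2, at 0.256 and 0.254. Mvk, the first mevalonate kinase, was nearly flat, with a range of 0.0472 over the livers. For Fdps, the farnesyl diphosphate synthase, 2 features disagreed in size and partly in sign: in wild-type livers 1 and 2 the first gave -0.246 and 0.397 and the second -0.0466 and 0.107, and in knockout liver 2 they gave -0.182 and 0.0841.

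The 3 genes that make squalene and lanosterol averaged 0.294 in wild-type liver 2 and -0.113 to 0.0770 elsewhere. Sqle, the squalene epoxidase and a slow step of the pathway, had the widest range of the sterol arm, at -0.0825, 0.403, 0.0370 and -0.185 in the wild types and -0.136, 0.0489 and 0.0728 in the knockouts. Its lowest and highest values were both wild type, and the difference was -0.0480 ± 0.132 (limma, adjusted p = 0.943) and 0.0720 without wild-type liver 2. Fdft1, the squalene synthase, followed the mean of the other sterol genes most closely over the 7 livers, with a Pearson r of 0.964. Without wild-type liver 2 its r was 0.848, and Nsdhl was the closest at 0.926. Lss, which closes squalene epoxide into lanosterol, ran from -0.185 in wild-type liver 1 to 0.249 in wild-type liver 2.

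The last stretch, 7 genes from Cyp51 to Dhcr7, removes methyl groups and moves double bonds to reach cholesterol. All 7 were highest in wild-type liver 2, and all 7 had a difference below 0, averaging -0.0842. Without that liver 5 of 7 were below 0, Dhcr7 and Ebp being above, and the average was -0.0301. Msmo1, the C-4 methyl sterol oxidase, stood at -0.0200, 0.305, 0.0485 and -0.0584 in the wild types and at -0.214, -0.0677 and -0.168 in the knockouts. The knockouts were all below the lowest wild type, knockout liver 3 only just, and the difference of -0.219 ± 0.0855 (SE) corresponds to 1.66-fold, with a 95% interval of 1.05 to 2.62. It did not pass over all genes (limma, adjusted p = 0.872), and without wild-type liver 2 it was -0.140. Dhcr7, which catalyses the last step to cholesterol, read -0.189, 0.310, 0.0930 and 0.0692 in the wild types and 0.0807, 0.0885 and -0.0200 in the knockouts. The knockouts lay within the wild-type range, and the difference was -0.0210 ± 0.102 (adjusted p = 0.968) and 0.0588 without wild-type liver 2. Over the 7 livers Dhcr7 correlated with the mean of the fatty acid genes at r = 0.975 and with the rest of its own arm at 0.806. The latter was 0.489 without wild-type liver 2. Nsdhl and Hsd17b7, which act with Msmo1 in removing the methyl groups at C-4, had differences of -0.0857 ± 0.0636 and -0.0624 ± 0.0741, and of -0.0375 and -0.0098 without that liver. Stard4, a carrier of cholesterol between membranes, was highest in wild-type liver 3 and followed the other sterol genes least over the 7 livers, at r = 0.383. Without wild-type liver 2 its r was 0.482, and Ebp followed the others least, at 0.103.

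**Figure D2:**
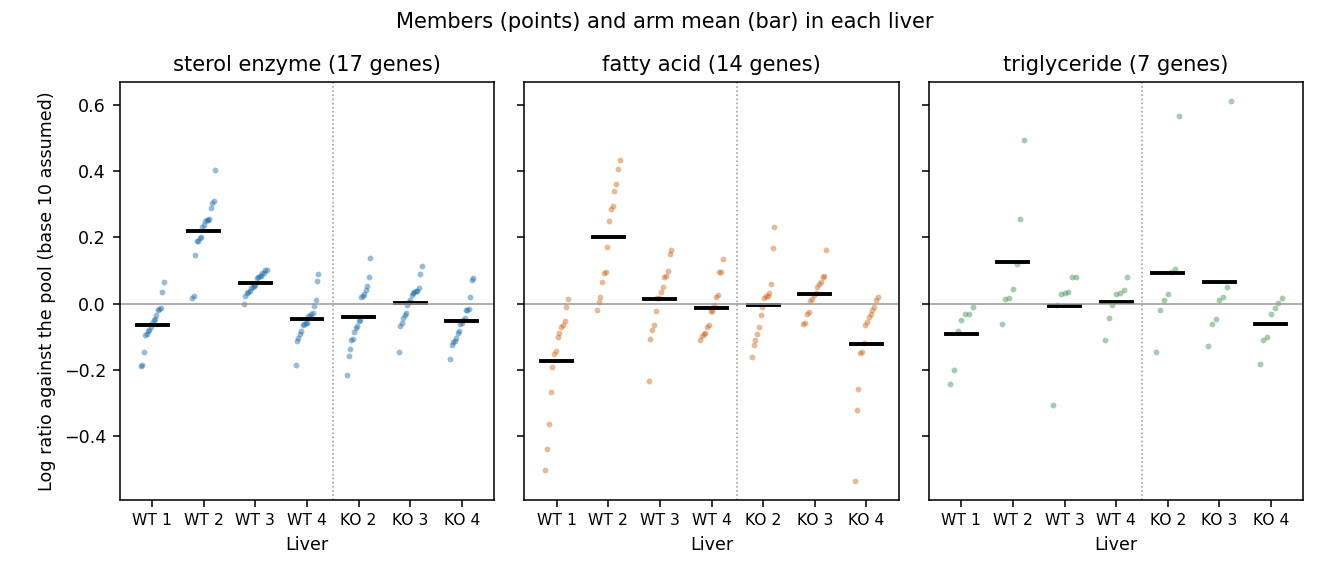
Points show the members and black bars the mean of the arm (vertical axis, log ratio against the pool, base 10 assumed) in each liver (horizontal axis) for 17 sterol, 14 fatty acid and 7 triglyceride genes. In wild-type liver 2 the means of the sterol and fatty acid arms are 0.221 and 0.201, while the 3 knockout livers lie within the range of the wild types in both.

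In the fatty acid arm wild-type liver 1 and knockout liver 4 were low, at means of -0.173 and -0.123. The same 2 livers were lowest in the sterol mean (-0.0634 and -0.0527) and in the triglyceride mean (-0.0924 and -0.0603). They lay less far below the pool in those arms. Genes of precursor supply, which provide acetyl-CoA and NADPH, averaged -0.209 in wild-type liver 1, 0.298 in wild-type liver 2 and -0.161 in knockout liver 4, with the other 4 livers from -0.0617 to 0.0136. Acly, which splits citrate into acetyl-CoA, stood at -0.439, 0.407, 0.0165 and 0.0199 in the wild types and at -0.124, -0.0305 and -0.0559 in the knockouts. Its 2 extremes were both wild-type livers, 7.01-fold apart, and the difference was -0.0709 ± 0.168 (SE; limma, adjusted p = 0.932) and 0.0643 without wild-type liver 2. Acss2, which makes acetyl-CoA from acetate, had -0.191, 0.434, -0.0803 and -0.0914 in the wild types and -0.111, 0.05 and -0.322 in the knockouts. Only wild-type liver 2 and knockout liver 3 exceeded the pool, and the difference was -0.146 ± 0.155 (adjusted p = 0.872) and -0.0069 without wild-type liver 2. Me1, the malic enzyme that yields NADPH, gave -0.142, 0.287, 0.0351 and -0.0963 in the wild types and -0.0356, 0.0134 and -0.256 in the knockouts. It too was highest in wild-type liver 2 and lowest in knockout liver 4, with a difference of -0.114 ± 0.110 (adjusted p = 0.872). Without the first of these livers it was -0.025, and without the other -0.0319.

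Chain synthesis itself was split between its genes. Fasn, the fatty acid synthase, stood at -0.362, 0.341, 0.150 and -0.0230 in the wild types and at 0.0158, 0.0586 and -0.0656 in the knockouts. The knockouts lay close together in the middle of the wild-type range, and the difference was -0.0236 ± 0.147 (SE; limma, adjusted p = 0.977) and 0.0811 without wild-type liver 2. Acaca, an acetyl-CoA carboxylase that supplies malonyl-CoA for synthesis, did not share this pattern. It was -0.0182 in wild-type liver 2 and highest, at 0.167, in knockout liver 2. Its r with the rest of the arm was -0.078, or 0.252 without wild-type liver 2. Acacb, the carboxylase tied to control of fatty acid oxidation, was highest in wild-type liver 2 at 0.0963. Its r with the rest of the arm was 0.798, or 0.509 without that liver.

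Thrsp, or Spot 14, a small protein of lipogenic tissue that is known to assist fatty acid synthesis, had the widest range of the arm, 0.897. It stood at -0.503, 0.362, 0.162 and 0.0272 in the wild types and at -0.0088, 0.162 and -0.535 in the knockouts. Wild-type liver 1 and knockout liver 4 were both far below the other 5 livers, 1 of each genotype, and the difference was -0.139 ± 0.229 (SE; limma, adjusted p = 0.906). Leaving out wild-type liver 2 gave -0.0224, and leaving out knockout liver 4 gave 0.0647. Among the elongases and desaturases, Elovl6 and Scd1 were highest in wild-type liver 2, at 0.2501 and 0.297. The 2 desaturases of polyunsaturated fatty acids behaved otherwise: Fads1 was highest in wild-type liver 4, at 0.136, and Fads2 in knockout liver 2. Fads2 read -0.101, 0.0061, 0.0996 and 0.0946 in the wild types and 0.233, 0.0806 and -0.0203 in the knockouts, with a difference of 0.0729 ± 0.0692 (adjusted p = 0.872). Wild-type liver 2 was thus in the lower part of the range for this gene, and the genotypes overlapped.

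The triglyceride genes, which join fatty acids to glycerol or act on the product, did not move as 1 group. Gpam, the mitochondrial acyltransferase that starts the chain, stood at -0.0496, 0.0138, 0.0329 and -0.0042 in the wild types and at -0.145, -0.0623 and -0.110 in the knockouts. The 3 knockouts were all below the lowest wild type, and the difference of -0.104 ± 0.0278 (SE) corresponds to 1.27-fold, with a 95% interval of 1.09 to 1.47. Gpam had the smallest p of all members and did not pass over all genes (limma, adjusted p = 0.872). Agpat2, the next acyltransferase, gave -0.0106, -0.0610, 0.0812 and 0.0299 in the wild types and 0.0306, -0.129 and 0.0009 in the knockouts. Knockout liver 3 was its lowest, the other knockouts lay among the wild types, and the difference was -0.0423 ± 0.0466 (adjusted p = 0.872) and -0.0659 without wild-type liver 2. Lpin1, a phosphatidate phosphatase that also acts as a coactivator in fasted liver, had the widest range of all members, 0.916. It stood at -0.242, 0.496, -0.305 and 0.0798 in the wild types and at 0.567, 0.611 and -0.183 in the knockouts. The livers fell far apart within each genotype, with wild-type liver 2 and knockout livers 2 and 3 high. The difference of 0.325 ± 0.249 corresponds to 2.11-fold, with a 95% interval from 0.554 to 8.06 (adjusted p = 0.872), and leaving out wild-type liver 2 or knockout liver 4 gave 0.488 or 0.582. Pnpla5, a lipase of the patatin family, gave -0.200, 0.256, -0.0049 and -0.110 in the wild types and -0.0190, -0.0449 and -0.101 in the knockouts. It followed the sterol mean at r = 0.945 and the fatty acid mean at r = 0.937 over the 7 livers. Without wild-type liver 2 these were 0.726 and 0.853. The difference of Pnpla5 was -0.0401 ± 0.0977 (limma, adjusted p = 0.935) and 0.0502 without that liver. Dgat1 and Dgat2, the enzymes of the last step, differed by 0.0279 ± 0.0361 and -0.0102 ± 0.0447, and by 0.0429 and 0.0214 without that liver.

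The sterol and fatty acid arms were then compared liver by liver. The mean of the 17 sterol genes was -0.0634, 0.221, 0.0617 and -0.0464 in wild-type livers 1 to 4 and -0.0393, 0.0036 and -0.0527 in knockout livers 2 to 4. That of the 14 fatty acid genes was -0.173, 0.201, 0.0135 and -0.0138 in the wild types and -0.0036, 0.0291 and -0.123 in the knockouts. Wild-type liver 2 was 1.66-fold above the pool in the first and 1.59-fold in the second. Over the 7 livers the means correlated with a Pearson r of 0.881 and a Spearman rho of 0.964, as a description, since both come from the same arrays. Without wild-type liver 2 r was 0.666 and rho 0.943 over 6 livers. Without wild-type livers 2 and 3, the farthest from the median sterol value, r was 0.793 and rho 1 over 5 livers. With the mean of each genotype removed r was 0.895 and rho 0.929. The order of the livers was thus nearly the same in both arms, in all of these sets. The sterol mean less the fatty acid mean was 0.110, 0.0201, 0.0482 and -0.0326 in the wild types and -0.0357, -0.0254 and 0.0700 in the knockouts. The 2 livers with the lowest fatty acid means, wild-type liver 1 and knockout liver 4, had the largest excess of sterol over fatty acid genes. A low fatty acid mean raises this excess by construction, and the sterol means of these 2 livers were also the lowest.

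**Figure D3:**
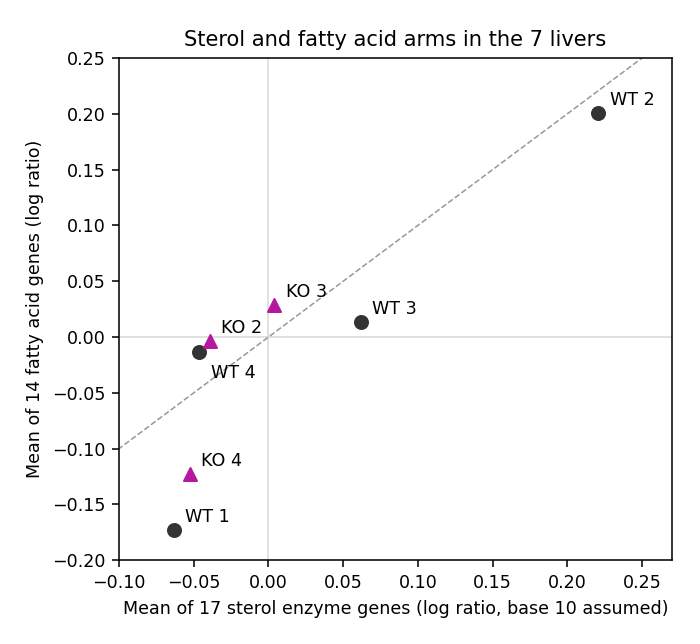
Each point is 1 liver, with the mean log ratio of the 17 sterol genes on the horizontal axis and that of the 14 fatty acid genes on the vertical axis (base 10 assumed, circles wild type, triangles knockout, dashed line equal values). Wild-type liver 2 lies alone at the upper right, and wild-type liver 1 and knockout liver 4 lie below the dashed line at fatty acid means of -0.173 and -0.123.

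Over all 7 livers the sterol genes had the highest correlations within their arm, but without wild-type liver 2 their median was no longer the highest. The median r of a sterol gene with the mean of the others was 0.879, and 13 of 17 exceeded 0.8. For the fatty acid genes the median was 0.787 and 6 of 14 exceeded 0.8, and for the triglyceride genes the median was 0.365 and 1 of 7 did. Among the 16420 genes outside the members, the median r was -0.070 with the sterol mean and -0.030 with the fatty acid mean, and 1.63% and 1.76% exceeded 0.8. Without wild-type liver 2 the median r within the arm was 0.596 for sterol, 0.729 for fatty acid and 0.612 for triglyceride genes. Single genes then ran from 0.103 (Ebp) to 0.926 (Nsdhl) in the sterol arm and from -0.423 (Scd2) to 0.941 (Thrsp) in the fatty acid arm. In the triglyceride arm they ran from -0.390 (Gpam) to 0.728 (Dgat1), so the medians alone do not rank the arms. The transcripts of the 4 regulators among the members followed the arms less than the sterol and fatty acid genes followed their own arms by median r. Srebf1 had r = 0.527 with the sterol mean and 0.595 with the fatty acid mean, Srebf2 0.151 and 0.212, and Mlxipl 0.048 and 0.151. Insig1 had 0.741 and 0.658, which became -0.203 and -0.047 without wild-type liver 2. Scap, the SREBP escort, which is not a member, followed the arms more closely than these regulators. It had 0.838 and 0.877, and 0.686 and 0.745 without that liver.

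The genes outside the list whose values were most like the sterol mean over the 7 livers were Rdh11, a retinol dehydrogenase, at r = 0.982, then Avpi1 at 0.979, Dhodh, an enzyme of pyrimidine synthesis, at 0.978, Csl at 0.976, Cnn1 at 0.973 and Limd1 at 0.970. For the fatty acid mean they were Htra4 at 0.986, Usp28 at 0.981, Olfr1368 at 0.977, Il17rb at 0.976, Mfsd4a at 0.973 and Gm9022 at 0.970. These are the highest of 16420 correlations over 7 points and are given as a description. Rdh11 had a range of 0.510, wider than that of most sterol genes, with 0.325 in wild-type liver 2 and -0.185 in wild-type liver 1.

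The promoters of the members were read because the sterol and fatty acid genes moved together across livers. SREBPs bind sterol regulatory elements and act with NF-Y, which binds CCAAT, and with Sp1, which binds GC boxes. RefSeq promoters, 250 bases before to 50 bases after a start in GRCm38.p6, were found for 34 of the 43 listed members, 42 promoters in all, and were searched on both strands for TCACNCCAC, which is 1 form of the sterol regulatory element, for the CCAAT box, for the GC box GGGCGG and for the E-box CACGTG. 5 of these are printed 5′ to 3′ on the gene's strand, in lower case with matches to the CCAAT box on either strand, and to the sterol element, in capitals. Hmgcs1 was the only sterol gene with a match to TCACNCCAC, and Msmo1 had no overlap between genotypes. Fasn and Thrsp had wide ranges in the fatty acid arm, and Lpin1 had the widest range of all members.
Hmgcs1: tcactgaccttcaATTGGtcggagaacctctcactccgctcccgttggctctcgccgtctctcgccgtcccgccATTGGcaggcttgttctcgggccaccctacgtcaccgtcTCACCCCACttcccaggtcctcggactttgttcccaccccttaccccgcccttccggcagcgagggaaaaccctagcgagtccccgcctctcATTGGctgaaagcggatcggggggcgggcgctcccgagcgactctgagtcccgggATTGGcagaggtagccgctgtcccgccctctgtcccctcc
Msmo1: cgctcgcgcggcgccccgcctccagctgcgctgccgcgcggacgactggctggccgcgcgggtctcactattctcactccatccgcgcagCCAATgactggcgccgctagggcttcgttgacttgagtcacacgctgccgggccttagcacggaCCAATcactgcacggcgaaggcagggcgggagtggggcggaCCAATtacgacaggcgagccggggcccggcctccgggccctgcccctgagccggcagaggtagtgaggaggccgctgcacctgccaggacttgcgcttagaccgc
Fasn: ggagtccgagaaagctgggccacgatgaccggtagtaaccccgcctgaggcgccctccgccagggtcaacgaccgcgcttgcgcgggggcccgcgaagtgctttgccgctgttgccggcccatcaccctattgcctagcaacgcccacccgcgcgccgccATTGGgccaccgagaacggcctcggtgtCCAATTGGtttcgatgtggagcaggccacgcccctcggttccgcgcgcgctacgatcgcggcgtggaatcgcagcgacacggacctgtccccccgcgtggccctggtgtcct
Thrsp: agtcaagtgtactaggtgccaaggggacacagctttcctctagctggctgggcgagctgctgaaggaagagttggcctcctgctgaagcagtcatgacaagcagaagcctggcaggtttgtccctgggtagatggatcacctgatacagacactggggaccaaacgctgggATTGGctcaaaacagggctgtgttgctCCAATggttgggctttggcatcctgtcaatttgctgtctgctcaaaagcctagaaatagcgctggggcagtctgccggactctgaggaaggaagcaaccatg
Lpin1: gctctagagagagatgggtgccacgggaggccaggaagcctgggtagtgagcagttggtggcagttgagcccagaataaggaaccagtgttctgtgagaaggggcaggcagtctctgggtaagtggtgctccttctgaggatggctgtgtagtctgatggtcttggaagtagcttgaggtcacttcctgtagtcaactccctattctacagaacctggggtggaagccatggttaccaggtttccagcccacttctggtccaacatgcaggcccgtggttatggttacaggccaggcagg
They lie at chr13:119690101-119690400 on the plus strand (Hmgcs1), and on the minus strand at chr8:64733529-64733828 (Msmo1), chr11:120824498-120824797 (Fasn), chr7:97417501-97417800 (Thrsp) and chr12:16610917-16611216 (Lpin1).

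The CCAAT letters were the commonest match among the members. They stood in at least 1 promoter of 28 of 34 members, or 82.4%, and of 41.1% of 27025 genes in the table. The sterol genes had them in 13 of 14, the fatty acid genes in 8 of 11, the triglyceride genes in 3 of 5 and the regulators in 4 of 4. Hmgcs1 held 4 matches, Msmo1 and Fasn 3 each, Thrsp 2 and Lpin1 0. In Fasn 2 of the matches run in opposite directions and share their middle letters. The GC box was in 26 of 34 members, or 76.5%, against 38.2% of genes, with 13 of 14 sterol and 5 of 11 fatty acid genes. TCACNCCAC was in 2 of 34, or 5.88%, against 1.44% of genes, namely in Mlxipl and in Hmgcs1, where TCACCCCAC begins 137 bases before the start. CACGTG was in 7 of 34, or 20.6%, against 8.09% of genes. No member promoter had matches to 2 different motifs that overlap. A match describes letters in this window only. The members were listed as genes that SREBPs are known to drive, so these shares describe the list and not control in these livers.

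Between genotypes the means of both arms differed by less than the SD over the wild types. The sterol mean was 0.0432 ± 0.131 (SD, n = 4) in the wild types and -0.0294 ± 0.0294 (SD, n = 3) in the knockouts, a difference of -0.0726 or 1.18-fold. The difference was -0.0134 without wild-type liver 2, with an SD of 0.0679 over the other 3 wild types. The median difference over the 17 sterol genes was -0.065, against 0.005 over all genes, with 16 of 17 below 0, and without that liver it was -0.005 with 9 of 17 below 0. The fatty acid mean was 0.0068 ± 0.153 (SD, n = 4) in the wild types and -0.0324 ± 0.0799 (SD, n = 3) in the knockouts, a difference of -0.0392 or 1.09-fold. It turned to 0.0254 without wild-type liver 2 and to 0.0059 without knockout liver 4. The triglyceride mean was 0.0078 ± 0.0903 (SD, n = 4) in the wild types and 0.0324 ± 0.0815 (SD, n = 3) in the knockouts. That difference of 0.0247 was 0.0644 without wild-type liver 2. It rested on Lpin1, being -0.0253 over the other 6 genes, a set chosen after the values were seen. The sterol mean less the fatty acid mean was 0.0363 ± 0.0593 (SD, n = 4) in the wild types and 0.0030 ± 0.0583 (SD, n = 3) in the knockouts, so the balance of the arms differed by -0.0334, less than the SD of either group.

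**Figure D4:**
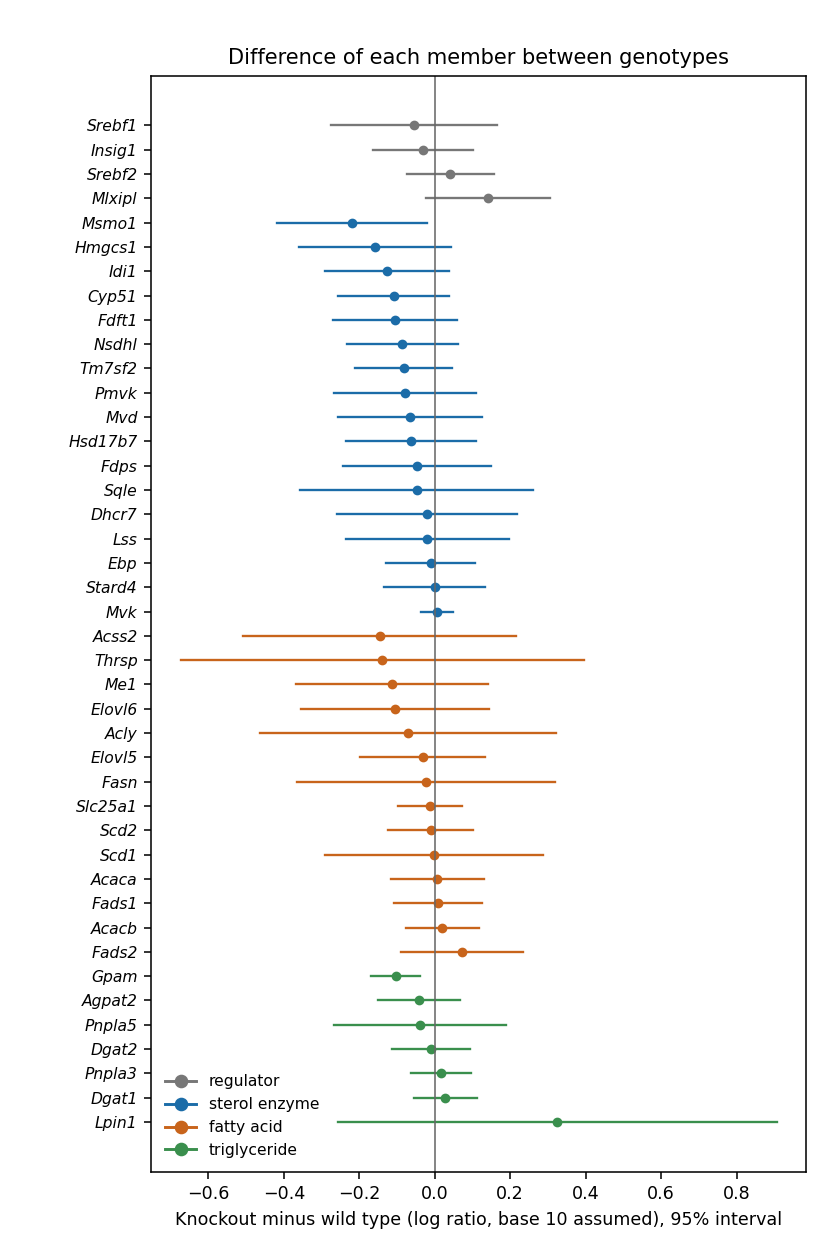
Points show the difference of each member, knockout minus wild type, and lines its 95% interval from limma (horizontal axis, log ratio, base 10 assumed), by arm and in order of size (vertical axis). Only the intervals of Msmo1 and Gpam lie wholly below 0, before adjustment over all genes, and that of Lpin1 is the widest.

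Other genes of the same pathways gave 0 calls by limma as well, over 6 further sterol, 9 SREBP processing, 20 lipogenic and 13 LXR and cofactor genes. Only Erlin2, Acsl3 and Mogat1 among them had an unadjusted p under 0.05, all lower in the knockouts, against 2.76% of all genes. In a list of further sterol pathway genes, 6 of 12 were measured, 5 of these 6 were highest in wild-type liver 2, and 4 of 6 had a difference below 0, or 2 of 6 without that liver. Sc5d, the sterol desaturase that acts just before Dhcr7, was 0.126 in wild-type liver 2 and -0.169 in wild-type liver 1. Among genes of SREBP processing, 9 of 11 were measured and 7 had a difference below 0. Erlin2, which takes part in Insig and reductase turnover, differed by -0.104 ± 0.0438 (SE; limma, adjusted p = 0.872). Insig2, the other Insig gene, ran from 0.181 in wild-type liver 1 to -0.273 in wild-type liver 4. Its r was -0.288 with the sterol mean and -0.604 with the fatty acid mean, and its rho -0.286 and -0.179. Of 20 measured further lipogenic genes 10 had a difference below 0 and 10 above. Acsl3, an acyl-CoA synthetase, was lower in all 3 knockouts than in any wild type, by -0.165 ± 0.0473 (limma, adjusted p = 0.872), where 2.61% of all genes had no such overlap. Mogat1, a monoacylglycerol acyltransferase, differed by -0.471 ± 0.171 (limma, adjusted p = 0.872), and its genotypes overlapped. It stood at 0.195, -0.135, 0.123 and 0.0188 in the wild types and at -0.0463, -0.378 and -0.836 in knockout livers 2 to 4. Of 13 LXR and cofactor genes 9 had a difference above 0, and none had an unadjusted p under 0.05.

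Lists of genes that respond to feeding and of cell type markers were read beside these results. The mean of 12 genes that respond to feeding or fasting was -0.0141 to 0.0437 in the wild types and 0.130, 0.101 and -0.0516 in knockout livers 2 to 4, and 0.0045 in wild-type liver 2. That mean holds genes of opposite response, and in wild-type liver 2 its members ran from Igfbp1 at 0.413 and Ppargc1a at 0.186 to Cpt1a at -0.117 and Pdk4 at -0.197. Pck1, the gluconeogenic carboxykinase, differed by 0.134 ± 0.0448 (SE; limma, adjusted p = 0.872). The 10 hepatocyte markers averaged -0.0586 to 0.0900 in the wild types and 0.0043 to 0.0941 in the knockouts, with 10 of 10 differences above 0. The 5 measured cholangiocyte markers averaged 0.148 in wild-type liver 2 and -0.0632 to 0.0262 in the other livers, with Krt7 at 0.262 and Epcam at 0.184. The 10 Kupffer cell markers averaged -0.241 to -0.0723 in the wild types and -0.113, -0.179 and 0.122 in the knockouts, and the 5 adipocyte markers averaged -0.0332 to 0.0187, with single markers from -0.101 to 0.0807. Differences were above 0 for 10 of 10 Kupffer cell, 8 of 9 endothelial and 7 of 8 stellate cell markers, against 9337 of all 16462 genes. Stab1 and Egfl7, 2 of the endothelial markers, were higher in all 3 knockouts than in any wild type, against 2.77% of all genes. Neither passed over all genes (limma, adjusted p = 0.872 for each). The part of these lists in the values of wild-type liver 2 and of the knockouts was not tested.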

How the data were processed

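The deposited table held log ratios, read as log10 values of mouse over pool, though neither the base nor the direction is stated. Per the labels' protocols, RNA was column-purified, DNase-treated, amplified and labelled by aminoallyl coupling, with Cy3 on channel 1 and Cy5 on channel 2. The design text adds that a dye swap was part of the profiling. Whether a column merges both orientations, the scanner software, the background correction and the normalization are not given in the sources used here. Precision is limited by how few arrays there are.

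Of 23574 probes, 17824 carried 1 gene symbol, 50 several and 5700 no listed gene. Symbols were updated by Entrez number (17724 probes) or accession (21), and 79 kept the annotation's own. Features of a gene were averaged. Tests used lmFit and eBayes of limma 3.58.1 under R 4.3.3 (no trend, all 7 livers, knockout minus wild type, two-sided, Benjamini-Hochberg over 16462 genes, threshold 0.05), in which the pool cancels. The fit was checked on simulated data with independent noise and planted differences. The check required recovery only of the largest planted size, which exceeds every member difference, so it does not bear on the lack of calls. Arm means are averages over members and carry no test. The lowest correlation between arrays was -0.250. The labels describe separate mice.

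Members, lists and motifs were chosen with earlier results of these data known. Every member could be named. Values in every liver were given for the regulators, for the 4, 4 and 3 members of widest range in the sterol, fatty acid and triglyceride arms, and for the 2 of smallest p in each. The 6 genes most like each arm and up to 3 genes of smallest p from a context list could also be named; the other context genes and values were chosen after they were seen. Alternatives were other normalizations, a variation filter, a weighted fit, a replicate block, medians in place of means and each liver left out.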

Additional observations from a re-analysis of the deposited data

Results flagged for a closer look

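Srebf1, the SREBP-1 gene, had 1 wild-type liver far from the others. Wild-type liver 1 stood at -0.298, and the gap to the nearest of the other 3 wild types took 0.953 of the whole range, above Dixon's critical value for 4 samples. Of 46 sets of wild-type values examined, those of the 42 members and 4 arm means, this was the 1 that exceeded it, and chance gives about 1 in 20. In the same liver the fatty acid mean was -0.173 and the sterol mean -0.0634. Single fatty acid genes ran there from -0.503 (Thrsp) to 0.0153 (Acaca), and sterol genes from -0.189 (Dhcr7) to 0.0644 (Hsd17b7).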

How the results depend on the processing

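In all 15 alternatives tried for the calls, limma called 0 members, and over all genes it called 0 to 3. The sterol difference kept its sign in 15 of 15 alternatives (-0.108 to -0.0134, the same range with each liver left out), as did the sterol less fatty acid difference in 14 of 14 (-0.0669 to -0.00893). The value of -0.0134 was that without wild-type liver 2, which the other alternatives kept. The replicate block and leaving out wild-type liver 1 gave the same differences, here and for single members, so the alternatives counted are not all separate. The fatty acid difference turned to 0.0172 with array weights and ran from -0.0992 to 0.0254 with each liver left out. The triglyceride difference turned to -0.00871 with the replicate block, to -0.0115 as a median over members and to -0.0253 without Lpin1, and ran from -0.00871 to 0.0711 with each liver left out. The r between arms ran from 0.666, without wild-type liver 2, to 0.910. Of 18 members given in every liver, 8 (Srebf1, Mlxipl, Msmo1, Hmgcs1, Fads2, Me1, Lpin1 and Gpam) kept their sign in every alternative, 232 of 252 values in all kept it, and the lowest adjusted p was 0.568 (limma, Gpam). Of these 8, with each liver left out, Srebf1 ran from -0.147 to -0.0164, Mlxipl from 0.0894 to 0.199, Fads2 from 0.00535 to 0.132 and Lpin1 from 0.185 to 0.582. With array weights Sqle turned to 0.0317, Dhcr7 to 0.0277, Thrsp to 0.0654, Acly to 0.00311, Acss2 to 0.00256 and Fasn to 0.0462, and with quantile normalization Sqle turned to 0.00756. With each liver left out Srebf2 ran from -0.0160 to 0.0777, Insig1 from -0.0614 to 0.0191, Sqle from -0.124 to 0.0720, Dhcr7 from -0.108 to 0.0588, Thrsp from -0.311 to 0.0647, Acly from -0.218 to 0.0643, Fasn from -0.153 to 0.0811, Pnpla5 from -0.102 to 0.0502 and Agpat2 from -0.0738 to 0.00588. The cause was not tested. Same-numbered livers of the 2 genotypes deviated from their group means with correlations of -0.135, -0.209 and -0.129 over genes. Livers of different number gave -0.285 to 0.300. These values gave no sign that the numbers pair the mice, but cannot exclude it, since the deviations within a genotype sum to 0. The replicate block, in which wild-type liver 1 has no partner and drops out of the difference, gave 0 calls over all genes, against 2 without that liver and 1 with all 7. The numbers of probes above background are not known here, so signal sets an unknown limit.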

Other observations

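Lpin1 was set beside the 12 measured genes that respond to feeding or fasting, after its values were seen. Over the 7 livers its r exceeded 0.8 with 3 of them, Ppargc1a, the coactivator PGC-1 alpha, at 0.929, Igfbp1, a secreted IGF-binding protein, at 0.891, and Pklr, the pyruvate kinase of fed liver, at 0.807. It was below 0 with 3, down to -0.783 with Pdk4, a kinase that restrains pyruvate oxidation in fasting, and the median was 0.324. With Tat, a tyrosine aminotransferase from the hepatocyte list, r was 0.939. With the fatty acid mean r was 0.635, and with the sterol mean 0.322. These became 0.902 and 0.821 without wild-type livers 2 and 3, and 0.799 and 0.581 with genotype means removed.

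Some near neighbours in the pathways moved together in these livers and others did not. Thrsp and Aacs, a cytosolic synthetase of acetoacetyl-CoA, had r = 0.967, and 0.975 without wild-type liver 2. Fads1 and Fads2 had 0.737, and 0.732 without that liver. For Scd1 and Scd2 r was 0.711 with it and 0.106 without it, and for Elovl5 and Elovl6 it was 0.527 and -0.273. Acaca and Acacb had r = -0.177, and Srebf1 and Srebf2 had -0.474. The points of each pair share their arrays, and no test was made.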
